A study of Homo sapiens with 16 samples.

Results

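The genes described here are 10 markers that are widely used to recognise stem-like cells in breast cancer, followed across sublines of the triple-negative breast cancer line MDA-MB-231 and of a further such line, MDA-MB-436. They were chosen by name: the surface proteins CD44, CD24, EPCAM and PROM1 (CD133), the aldehyde dehydrogenases ALDH1A1 and ALDH1A3, the transcription factors SOX2, SOX9 and KLF4, and the Polycomb protein BMI1. Of these 10 genes, 9 have a row among the 57820 genes of the count tables, and the other, CD24, is followed through the reads counted on a copy of it.

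Every subline carries 7TGP, a Wnt reporter in which Tcf/Lef binding sites drive eGFP, and each had been sorted repeatedly by eGFP into Wnt-negative (7TGP-NEG) and Wnt-positive (7TGP-POS) cells. All sublines share the transfected vector and the puromycin selection, and each subline is a single sorted population. The study calls the replicates of a group biological duplicates without saying how they were separated, so p-values measure only the spread between duplicates of 1 sorted population and not between independently sorted ones. Bulk RNA-Seq covered 8 groups of 2 libraries: the 7TGP-NEG and the 7TGP-POS subline of either line, each in low serum (0.5% FBS, harvested on day 3) and in standard serum (10% FBS, harvested on day 6). Libraries of low serum cultures were made from rRNA-depleted RNA and those of standard serum cultures from polyadenylated RNA according to the study's methods. The labels name the TruSeq kit for all 16 libraries. Serum, harvest day and library preparation therefore cannot be told apart, and serum conditions were not tested against each other. According to the study's methods, MDA-MB-231 sublines were grown in a DMEM-based medium and MDA-MB-436 sublines in an RPMI-based one. Cell line and medium therefore cannot be told apart in any comparison between the lines. Libraries held 27918418 to 32667756 counts on genes in low serum and 31827130 to 46044073 in standard serum. The mesenchymal label matched the markers in part: VIM, which encodes the mesenchymal filament vimentin, had group means from 672 to 5520 normalised CPM and the epithelial cadherin CDH1 had at most 12 counts in any library, while the simple-epithelial keratin KRT8 lay between 293 and 745 normalised CPM. Other mesenchymal genes differed by line. Group means of CDH2 were 0.337 to 1.71 normalised CPM in MDA-MB-231 and 133 to 237 in MDA-MB-436. TWIST1 was at most 0.0597 in MDA-MB-231 and 22.5 to 33.3 in MDA-MB-436, whereas AXL was at 1500 to 1680 against 68.7 to 210. Of the 8 genes fixed as markers of other lineages, 7 had at most 9 counts in any library. The exception was the leukocyte phosphatase PTPRC, with 3 to 334 counts, which was also higher in Wnt-positive MDA-MB-231 cells in low serum (log2 fold change 1.14 ± 0.188 SE, adjusted p = 3.61e-06, edgeR) and whose part in the results below was not tested.

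Breast cancer cells that start tumours when transplanted have classically been recognised by high CD44 and low CD24 on their surface, or by high aldehyde dehydrogenase activity, and these definitions mark populations that overlap only in part. CD44 is the receptor for hyaluronan, whereas EPCAM is an adhesion protein of epithelial cells and CD24 is a small, heavily glycosylated protein anchored in the membrane by a lipid. ALDH1A1 and ALDH1A3 oxidise retinal to retinoic acid, SOX2 and KLF4 belong to the factors that can reprogram differentiated cells, SOX9 is a progenitor factor of the mammary epithelium, and BMI1 is a subunit of the Polycomb repressive complex that keeps the INK4A/ARF locus silent.

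CD24 itself could not be counted on its own locus. The RefSeq promoter of CD24, taken from GRCh38.p14, was divided into 10 pieces of 30 bases, and 0 of them were found on chromosome 6 of GRCh37, the build to which the reads had been aligned, and 1 was found elsewhere. For each of the 7 other members whose promoter is in the same table, 10 of 10 pieces were found on the member's own chromosome. Reads that resemble CD24 were instead counted on CD24P4 (ENSG00000185275), annotated as a processed pseudogene at chrY:21154353-21154595 of GRCh37, minus strand. Its sequence is shown because it carries all but a few of the CD24-like reads of these tables, with the first and the last codon in capitals:
CD24P4: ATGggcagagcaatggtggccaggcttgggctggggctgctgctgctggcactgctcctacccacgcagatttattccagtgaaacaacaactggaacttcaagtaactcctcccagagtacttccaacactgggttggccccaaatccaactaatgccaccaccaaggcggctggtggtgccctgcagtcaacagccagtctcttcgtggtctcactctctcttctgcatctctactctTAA
The 243 bases open with a start codon and run without interruption to a stop at codon 81, the last one. The other annotated copies are less alike, with 76.8% identity to CD24P4 for CD24P1, 82.5% for CD24P2 and 72.3% for CD24P5, and none of these 3 opens with a start codon. RNA from CD24 and RNA from CD24P4 cannot be told apart in these counts, and the values below are given for CD24P4 by name.

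Counting of the other members was checked against the annotation, with coordinates of GRCh37. BMI1 (chr10:22610028-22620413, plus strand) shares 22.8% of its exon bases with the readthrough gene COMMD3-BMI1, which had 0 counts in all 16 libraries. ALDH1A3 (chr15:101417919-101456831, plus strand) shares 32.1% of its exon bases with the antisense gene ALDH1A3-AS1, whose group means lay between 0.526 and 3.42 CPM of all counts. SOX2 (chr3:181429713-181432224, plus strand) lies within SOX2-OT yet shares no exon base with it. The remaining members, CD44 (chr11:35160429-35253949), EPCAM (chr2:47572297-47614740), PROM1 (chr4:15964699-16086001), ALDH1A1 (chr9:75515587-75695358), SOX9 (chr17:70117161-70122557) and KLF4 (chr9:110247133-110252763), share at most 2.2% of their exon bases with another gene.

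The members differed widely in level, and the same genes did not lead in both lines. Levels between genes were compared per length, as TPM rescaled so that the protein-coding genes of every library sum to the same total as full TPM does. This rescaling was needed in low serum, where 3 rows of short structural RNAs, among them RN7SK and RN7SL2, took 13.3% to 44.7% of the deposited TPM, against at most 0.1% in standard serum.

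In MDA-MB-231 7TGP-NEG cells in low serum, SOX9 was at 259 and 239 rescaled TPM and CD44 at 198 and 196. BMI1 (78.8 and 75.0) and KLF4 (87.2 and 79.2) followed, close to each other. EPCAM was at 16.1 and 14.1 rescaled TPM and ALDH1A3 at 4.10 and 4.72. SOX2 (0.888 and 0.822), ALDH1A1 (0.158 and 0.0574) and PROM1 (0.0592 and 0.134), of which the latter pair overlapped, formed the bottom of the order in this subline. MDA-MB-436 7TGP-NEG cells in low serum instead had ALDH1A3 at the top, at 447 and 435 rescaled TPM. KLF4 (180 and 180) and CD44 (170 and 173) came next, then BMI1 (51.7 and 53.8) and SOX9 (31.7 and 33.8). SOX2 (3.66 and 4.11) and EPCAM (3.92 and 2.96) overlapped in level, above ALDH1A1 (1.12 and 1.73) and PROM1 (below 0.25 in all libraries).

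In standard serum CD44 (168 and 158 rescaled TPM) stood above SOX9 (139 and 134) in MDA-MB-231 7TGP-NEG cells, the reverse of their order in low serum, and ALDH1A3 (204 and 212) was again first in MDA-MB-436 7TGP-NEG cells. PROM1 stayed at the bottom. Its highest count in any of the 16 libraries was 11, and no statement is made on its direction at this depth.

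**Figure D1:**
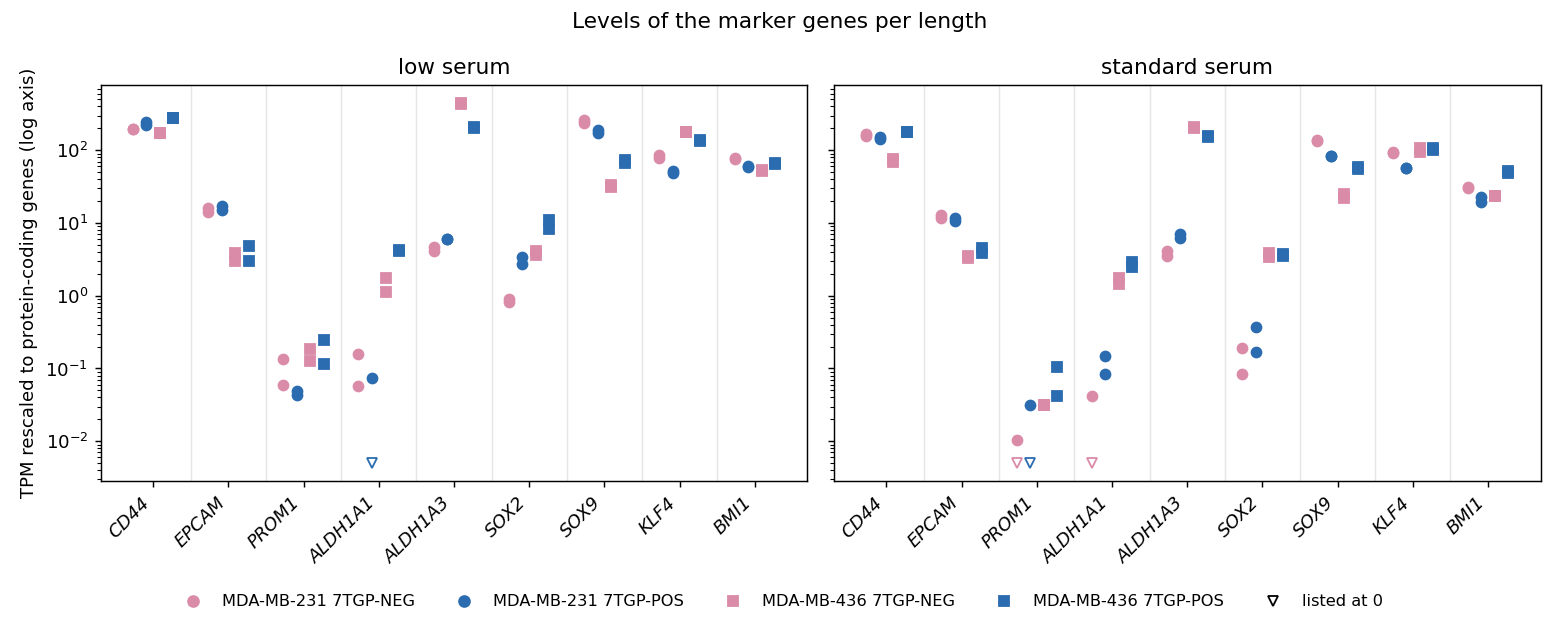
Levels of the 9 members with a row, as TPM rescaled to protein-coding genes on a log axis, in low serum (left) and standard serum (right). Each point is 1 library, circles are MDA-MB-231 and squares MDA-MB-436, pink is 7TGP-NEG and blue 7TGP-POS, and open triangles at the lower edge are listed at 0. ALDH1A3 separates the lines most widely, from 4.10 to 447 rescaled TPM among the 7TGP-NEG libraries in low serum, and PROM1 stays below 0.25 in every library.

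The lines, each in its own medium, were compared first, within each reporter state. Values from here on are normalised CPM, meaning CPM on the tested protein-coding counts with TMM factors, given for both libraries of a group, and tests are edgeR's quasi-likelihood tests adjusted over all genes tested. A gene counts as a DEG when its adjusted p is under 0.05 and its log2 fold change is 1 or more in either direction. Among 7TGP-NEG cells, 6 of 9 members were DEGs between the lines in low serum, where 41.9% of all genes tested were, and 6 of 9 in standard serum, where 46.7% were. Among 7TGP-POS cells the members counted 7 in low serum, against 38.9% of all genes, and 5 in standard serum, against 45.4%. The low serum count includes PROM1, with 2 and 2 counts in MDA-MB-231 against 6 and 11 in MDA-MB-436. Its call was lost with DESeq2 (adjusted p = 0.128).

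The widest gap was that of ALDH1A3, the enzyme that accounts for much of the aldehyde dehydrogenase activity of breast cancer cells. It was at 5.55 and 6.51 in MDA-MB-231 7TGP-NEG and 593 and 590 in MDA-MB-436 7TGP-NEG libraries in low serum, a 98.1-fold difference (log2 difference −6.62 ± 0.0711 SE, adjusted p = 8.19e-45, edgeR). In standard serum the ratio was 48.4 among Wnt-negative cells (adjusted p = 1.15e-18, edgeR) and among Wnt-positive cells the ratio of MDA-MB-436 to MDA-MB-231 was 20.1 (adjusted p = 1.38e-17, edgeR). Its relative ALDH1A1, which acts on the same substrate, leaned the same way at a far lower level. In low serum it had 3 and 1 counts in MDA-MB-231 7TGP-NEG against 23 and 31 in MDA-MB-436 7TGP-NEG libraries, at least 8.41-fold higher in the latter when set against a floor of 3 counts per library. Among 7TGP-POS libraries in low serum the counts were 0 and 1 against 82 and 70, so that MDA-MB-436 was higher by at least 22.7-fold.

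SOX2 was also lower in MDA-MB-231, with 4.44-fold in 7TGP-NEG cells in low serum (log2 difference −2.15 ± 0.299 SE, adjusted p = 2.27e-08, edgeR) and 22.4-fold in standard serum (−4.48 ± 0.401, adjusted p = 7.07e-09, edgeR). The standard serum value rests on 2 and 4 counts in MDA-MB-231 against 75 and 97 in MDA-MB-436. EPCAM and SOX9 went the other way. EPCAM was 4.42-fold higher in MDA-MB-231 7TGP-NEG cells in low serum (adjusted p = 1.04e-13, edgeR) and 4.02-fold higher in standard serum (adjusted p = 8.74e-10, edgeR), and SOX9 was 7.73-fold (adjusted p = 6.96e-34, edgeR) and 6.53-fold higher (adjusted p = 1.41e-15, edgeR).

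For CD44, SOX9 and BMI1 the distance between the lines was not the same in Wnt-positive as in Wnt-negative cells, which is the interaction tested below. CD44 was 2.54-fold higher in MDA-MB-231 than in MDA-MB-436 among 7TGP-NEG cells in standard serum (adjusted p = 6.22e-12, edgeR), whereas among 7TGP-POS cells the log2 difference was −0.05 ± 0.0727 SE (adjusted p = 0.524, edgeR). SOX9 was 6.53-fold higher in MDA-MB-231 7TGP-NEG cells and 1.72-fold higher in MDA-MB-231 7TGP-POS cells (adjusted p = 3.61e-08, edgeR) in standard serum. BMI1 in standard serum was 1.46-fold higher in MDA-MB-231 among 7TGP-NEG cells (adjusted p = 3.32e-05, edgeR), and among 7TGP-POS cells MDA-MB-436 exceeded MDA-MB-231 by 2.05-fold (adjusted p = 6.94e-09, edgeR).

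**Figure D2:**
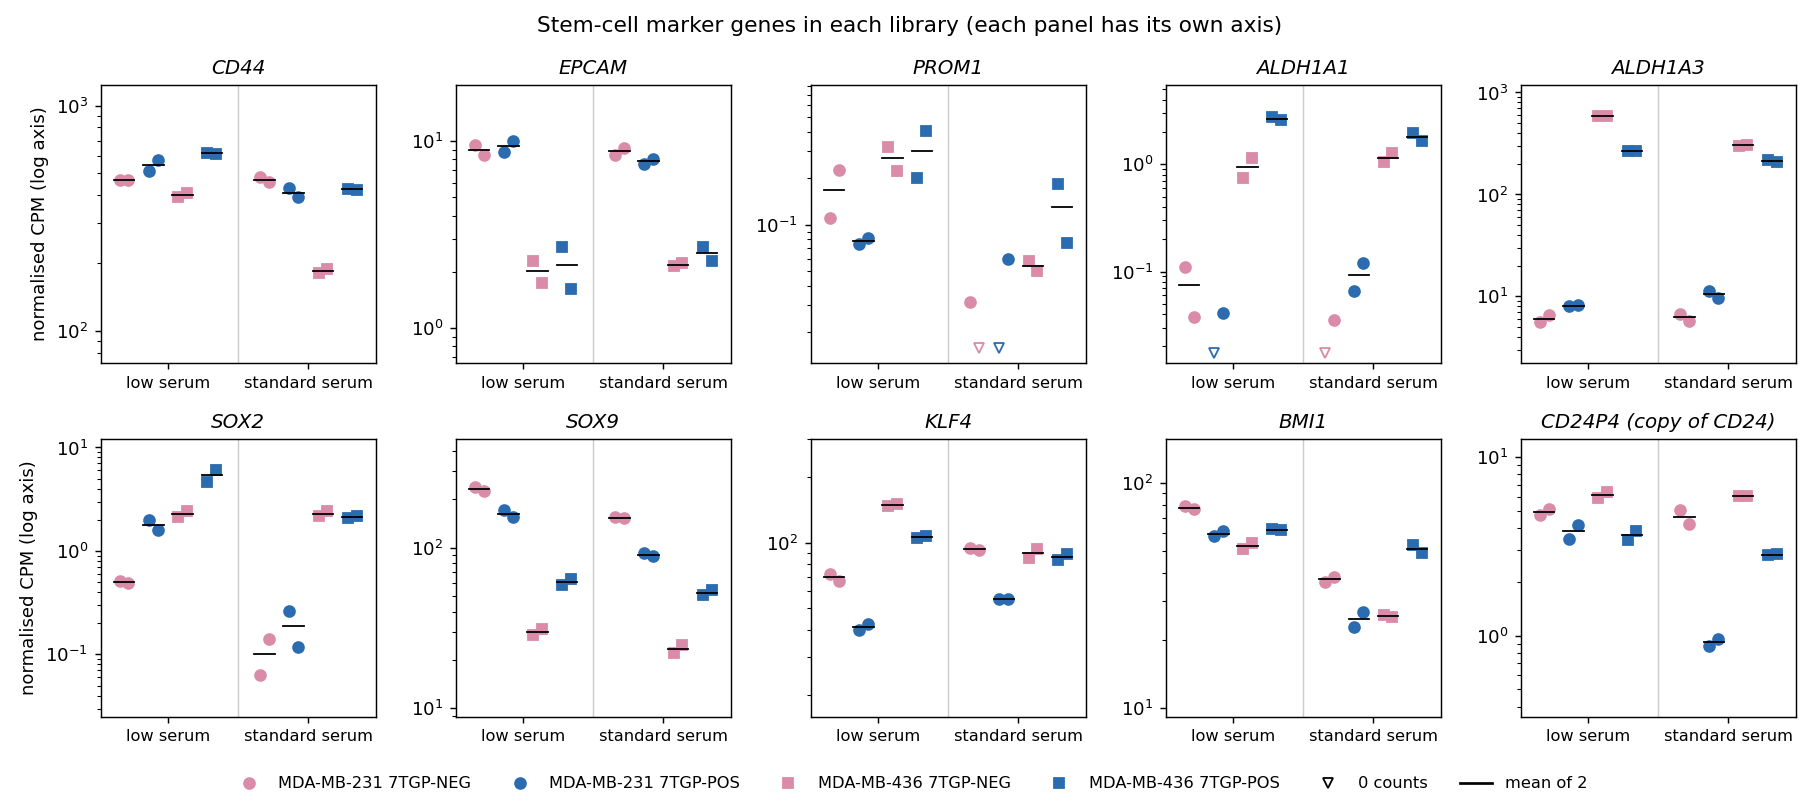
Normalised CPM of the 9 members and of CD24P4 in each library, on log axes that differ between panels. In each serum condition the groups run from MDA-MB-231 7TGP-NEG and 7TGP-POS (circles, pink and blue) to MDA-MB-436 7TGP-NEG and 7TGP-POS (squares), black bars are means of 2 libraries where neither is at 0, and open triangles mark 0 counts. SOX9 falls from pink to blue circles and rises from pink to blue squares in both serum conditions, and CD24P4 is lower in blue than in pink in every pair of groups.

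The main question is how the markers differ between Wnt-positive and Wnt-negative cells of a line. In low serum 1 of the 9 members was a DEG in MDA-MB-231 (SOX2), where 5.90% of all genes tested were, and 4 were DEGs in MDA-MB-436 (SOX2, ALDH1A1, ALDH1A3 and SOX9; 3 by DESeq2, which left SOX9 at 0.996), where 10.5% were. In standard serum 0 members were DEGs in MDA-MB-231 by edgeR and also by DESeq2, against 7.69% of all genes, with 5 at an unadjusted p under 0.05, and 2 were DEGs in MDA-MB-436 (CD44 and SOX9), against 12.5% of all genes. Smaller changes passed the test more often. With an adjusted p under 0.05 and no limit on size, the members counted 6 and 7 in low serum (background 38.9% and 52.0%) and 4 and 5 in standard serum (33.0% and 49.5%), for MDA-MB-231 and MDA-MB-436. The medians of the members' log2 fold changes were −0.39 for MDA-MB-231 and 0.24 for MDA-MB-436 in low serum and −0.18 and 0.64, in that order, in standard serum, against medians between −0.01 and 0.01 over all genes.

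CD44 rose in Wnt-positive MDA-MB-436 cells. In low serum its libraries were at 392 and 408 normalised CPM in 7TGP-NEG and 618 and 613 in 7TGP-POS cells, and in standard serum at 180 and 189 against 428 and 424. The groups did not overlap in either condition. The increase was 1.54-fold in low serum (log2 fold change 0.62 ± 0.0516 SE, adjusted p = 1.7e-13, edgeR) and 2.31-fold in standard serum (1.21 ± 0.0740, adjusted p = 3.03e-10, edgeR). In MDA-MB-231 the differences were small and of opposite sign in the conditions. CD44 was at 467 and 470 in 7TGP-NEG against 513 and 573 in 7TGP-POS libraries in low serum, a 1.16-fold increase (adjusted p = 0.000858, edgeR). In standard serum it was at 480 and 458 against 429 and 393, a log2 fold change of −0.19 ± 0.0728 SE that missed the threshold (adjusted p = 0.0537, edgeR) and passed it in 11 of 18 alternative fits, with adjusted p between 0.0118 and 0.313 over these fits. The increase in low serum was not seen on the deposited TPM scale, where the log2 fold change was 0.01 (adjusted p = 0.973, limma). On that scale the median over all genes was itself shifted to −0.13, from −0.01, and the share of the short structural RNAs was 34.4% and 35.6% in 7TGP-NEG and 39.0% and 44.7% in 7TGP-POS libraries.

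CD24P4, the copy on which CD24-like reads were counted, was lower in the Wnt-positive group of every pair. In standard serum MDA-MB-231 libraries it had 161 and 120 counts in 7TGP-NEG and 27 and 32 in 7TGP-POS cells, or 5.04 and 4.21 against 0.880 and 0.954 normalised CPM. This was a 5.03-fold decrease (log2 fold change −2.33 ± 0.202 SE, adjusted p = 6.13e-08, edgeR). In MDA-MB-436 it was at 6.03 and 6.03 against 2.84 and 2.85 normalised CPM, a 2.12-fold decrease (−1.08 ± 0.157, adjusted p = 1.6e-05, edgeR), and the decrease was larger in MDA-MB-231 by a log2 difference of −1.25 ± 0.262 SE (adjusted p = 0.000846, edgeR). In low serum the decrease passed the test in MDA-MB-436 (5.90 and 6.35 against 3.42 and 3.88, 1.68-fold, adjusted p = 3.11e-05, edgeR). In MDA-MB-231 in low serum its libraries were at 4.74 and 5.11 against 3.49 and 4.18, with a log2 fold change of −0.36 ± 0.161 SE and an adjusted p of 0.0742 (edgeR), and of −0.49 with an adjusted p of 0.0468 without the second 7TGP-POS replicate. These fits, with CD24P4 added to the protein-coding genes, were chosen after the data were seen.

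EPCAM did not pass the test in any of the 4 reporter comparisons. Its libraries were at 9.51 and 8.44 normalised CPM in MDA-MB-231 7TGP-NEG and 8.73 and 9.96 in 7TGP-POS cells in low serum, and at 8.45 and 9.22 against 7.52 and 8.05 in standard serum. In MDA-MB-436 it was at 2.28 and 1.75 against 2.71 and 1.63 in low serum, and at 2.15 and 2.23 against 2.73 and 2.29 in standard serum. The groups overlapped in low serum in both lines, and the adjusted p lay between 0.343 and 0.798 over the 4 comparisons (edgeR). PROM1 had 0 to 11 counts per library, and its adjusted p for the reporter state was between 0.257 and 0.893 (edgeR).

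The aldehyde dehydrogenases moved in opposite directions in MDA-MB-436. ALDH1A1 rose in Wnt-positive cells in low serum, from 0.738 and 1.15 to 2.75 and 2.59 normalised CPM, a 2.86-fold increase (log2 fold change 1.52 ± 0.260 SE, adjusted p = 4.27e-06, edgeR). ALDH1A3 fell there from 593 and 590 to 266 and 267, a 2.22-fold decrease (−1.15 ± 0.0486, adjusted p = 7.51e-23, edgeR). The 7TGP-POS cells still held far more ALDH1A3 than ALDH1A1, at 205 and 212 against 4.30 and 4.16 rescaled TPM. In standard serum ALDH1A3 fell 1.43-fold, from 302 and 306 to 217 and 207 normalised CPM (adjusted p = 2.54e-05, edgeR). ALDH1A1 was at 1.04 and 1.27 against 1.95 and 1.66, a log2 fold change of 0.64 ± 0.253 SE with an adjusted p of 0.0434 (edgeR), and this call did not hold with DESeq2 (adjusted p = 0.384) or without the first or second 7TGP-NEG or the first 7TGP-POS replicate (adjusted p = 0.253, 0.0993 and 0.222).

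In MDA-MB-231 ALDH1A3 went up instead of down. Its libraries were at 5.55 and 6.51 normalised CPM in 7TGP-NEG and 8.06 and 8.15 in 7TGP-POS cells in low serum, a 1.34-fold increase (log2 fold change 0.43 ± 0.0993 SE, adjusted p = 0.000523, edgeR). In standard serum they were at 6.73 and 5.78 against 11.4 and 9.75, a 1.68-fold increase (0.75 ± 0.108, adjusted p = 2.61e-05, edgeR). The groups did not overlap in either condition. The low serum change did not pass the test on the deposited TPM scale (log2 fold change 0.16, adjusted p = 0.332, limma). ALDH1A1 had 4 counts or fewer in each MDA-MB-231 library, and a change in it was not detectable at this depth.

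Among the transcription factors, SOX2 rose in Wnt-positive cells of both lines in low serum. It went from 0.518 and 0.492 to 1.99 and 1.60 normalised CPM in MDA-MB-231, with 14 and 13 against 53 and 39 counts, a 3.54-fold increase (log2 fold change 1.82 ± 0.320 SE, adjusted p = 1e-05, edgeR). In MDA-MB-436 it went from 2.12 and 2.41 to 4.66 and 6.10, a 2.37-fold increase (1.25 ± 0.182, adjusted p = 1.99e-07, edgeR). The increases of the lines did not pass the test of their difference (adjusted p = 0.229, edgeR). In standard serum no such change was seen in MDA-MB-436. Its libraries were at 2.18 and 2.41 in 7TGP-NEG and 2.08 and 2.19 in 7TGP-POS cells (log2 fold change −0.11 ± 0.215 SE, adjusted p = 0.717, edgeR). MDA-MB-231 libraries held 2 and 4 against 8 and 4 counts (adjusted p = 0.352, edgeR), and no statement is made on a change there at this depth. SOX2-OT, the long noncoding gene around SOX2, did not pass the test in either line (adjusted p from 0.108 to 0.955, edgeR).

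SOX9 changed in opposite directions in the lines, in both serum conditions. In MDA-MB-231 it fell from 238 and 225 to 170 and 155 normalised CPM in low serum (1.42-fold, log2 fold change −0.51 ± 0.0542 SE, adjusted p = 4.18e-10, edgeR). In standard serum it fell from 155 and 152 to 91.8 and 88.8 (1.70-fold, −0.77 ± 0.0778, adjusted p = 4.6e-07, edgeR). In MDA-MB-436 it rose from 28.7 and 31.2 to 58.7 and 63.7 in low serum (2.04-fold, 1.03 ± 0.0636, adjusted p = 4.25e-17, edgeR) and from 22.2 and 24.8 to 50.6 and 54.2 in standard serum (2.23-fold, 1.16 ± 0.0820, adjusted p = 2.11e-09, edgeR). The low serum value lay at the edge of the DEG limit, at 0.996 with DESeq2, 0.964 without the first MDA-MB-436 7TGP-NEG replicate and 0.937 without the second 7TGP-POS replicate, with a test that passed each time. The antisense gene SOX9-AS1 also rose in Wnt-positive MDA-MB-436 cells (log2 fold change 1.59 in low serum, adjusted p = 0.00555, and 1.10 in standard serum, adjusted p = 0.015, edgeR on all biotypes), at group means of at most 0.625 CPM of all counts in that line. In MDA-MB-231, where SOX9 fell, SOX9-AS1 did not pass the test. Its log2 fold changes there were 0.56 in low serum (adjusted p = 0.0792) and 0.17 in standard serum (adjusted p = 0.604, edgeR on all biotypes).

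KLF4 fell in Wnt-positive MDA-MB-231 cells. It went from 72.2 and 66.8 to 39.9 and 42.4 normalised CPM in low serum (1.69-fold, log2 fold change −0.76 ± 0.0594 SE, adjusted p = 7.89e-14, edgeR). In standard serum it went from 94.4 and 93.0 to 55.5 and 55.1 (1.69-fold, −0.76 ± 0.0778, adjusted p = 4.96e-07, edgeR). In MDA-MB-436 the decrease was seen in low serum, from 147 and 150 to 105 and 107 (1.40-fold, −0.49 ± 0.0531, adjusted p = 2.46e-10, edgeR). In standard serum the groups overlapped, at 85.4 and 93.9 against 83.2 and 89.0 (adjusted p = 0.552, edgeR). KLF4 was thus the member with a decrease in 3 of the 4 comparisons.

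BMI1 followed the pattern of SOX9. In MDA-MB-231 it fell from 79.0 and 76.6 to 58.2 and 61.0 normalised CPM in low serum (1.31-fold, log2 fold change −0.39 ± 0.0582 SE, adjusted p = 6.6e-07, edgeR) and from 36.4 and 38.3 to 22.9 and 26.8 in standard serum (−0.59 ± 0.0936, adjusted p = 7.57e-05, edgeR). In MDA-MB-436 it rose from 25.9 and 25.5 to 53.2 and 48.8 in standard serum (1.99-fold, 0.99 ± 0.0916, adjusted p = 7.65e-08, edgeR), and without the second 7TGP-POS replicate the log2 fold change was 1.05, past the DEG limit. In low serum it went from 50.9 and 54.1 to 62.5 and 61.8 there (1.18-fold, 0.24 ± 0.0588, adjusted p = 0.000542, edgeR), and on the deposited TPM scale, where the median of all genes was −0.15, the log2 fold change was −0.00368 (adjusted p = 0.988, limma). COMMD3, the gene that ends just upstream of BMI1 on the same strand, had log2 fold changes of the same signs: −0.28 (adjusted p = 0.031) and −0.38 (adjusted p = 0.0211) in MDA-MB-231 and 0.25 (adjusted p = 0.0703) and 0.44 (adjusted p = 0.00688) in MDA-MB-436, in low and standard serum (edgeR on all biotypes).

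**Figure D3:**
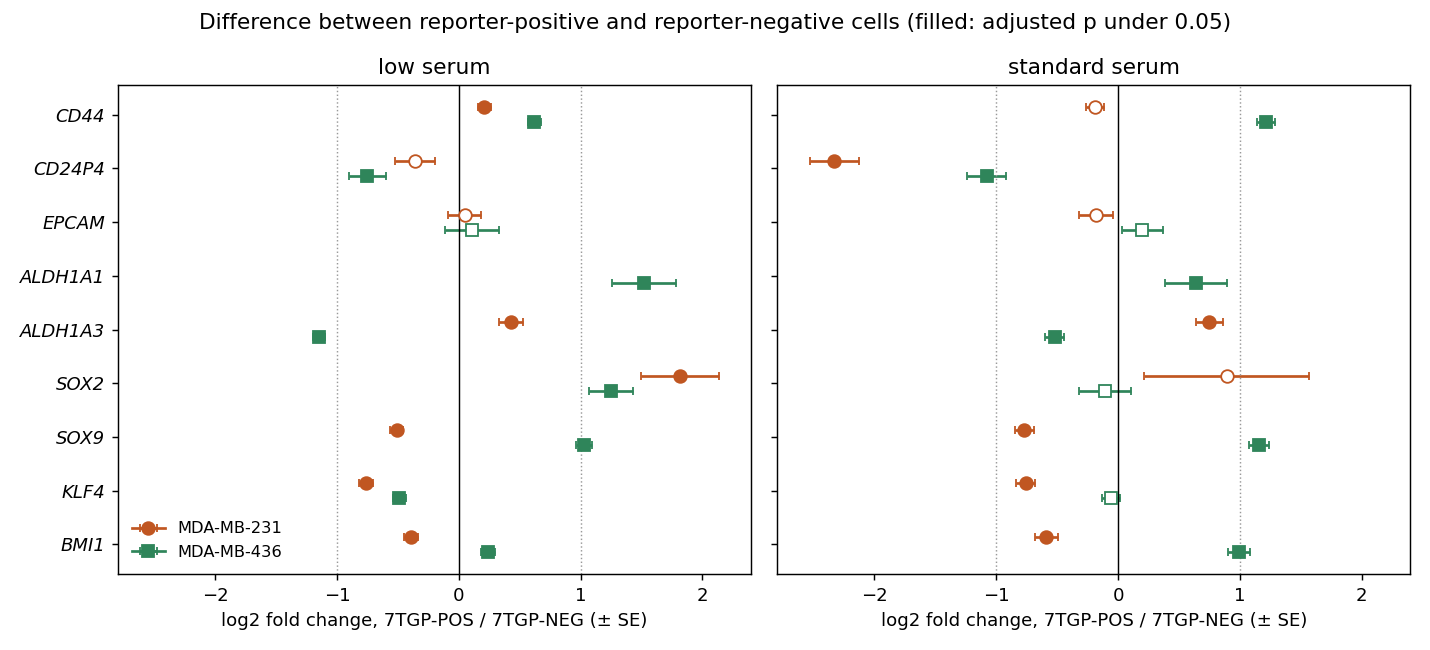
Log2 fold change of 7TGP-POS over 7TGP-NEG cells in low serum (left) and standard serum (right), with standard errors from edgeR, for MDA-MB-231 (orange circles) and MDA-MB-436 (green squares). Filled symbols have an adjusted p under 0.05 and dotted lines mark a log2 fold change of 1 in either direction. PROM1 and the MDA-MB-231 values of ALDH1A1 are left out because of their counts. SOX9 and BMI1 lie left of zero for MDA-MB-231 and right of it for MDA-MB-436 in both panels, although BMI1 in MDA-MB-436 in low serum falls just below zero on the deposited TPM scale, and ALDH1A3 lies the other way round.

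Whether the reporter state went with different changes in the lines, each in its own medium, was tested as an interaction. The interaction was called with a log2 difference of at least 1 for 2 members in low serum (ALDH1A3 and SOX9), where 11.7% of all genes were called, and for 4 in standard serum (CD44, ALDH1A3, SOX9 and BMI1), where 13.8% were. With no limit on size it passed for 5 members in each condition, these 4 and KLF4, against 45.7% of all genes in low and 41.2% in standard serum. In standard serum the log2 fold change in MDA-MB-231 minus that in MDA-MB-436 was −1.92 ± 0.113 SE for SOX9 (adjusted p = 2.79e-10, edgeR) and −1.58 ± 0.131 for BMI1 (adjusted p = 2.88e-08, edgeR). It was −1.40 ± 0.104 for CD44 (adjusted p = 6.54e-09, edgeR) and 1.27 ± 0.134 for ALDH1A3 (adjusted p = 5.62e-07, edgeR). In standard serum SOX9, BMI1 and ALDH1A3 thus changed in opposite directions in the lines, each with a test that passed in either line, while for CD44 the test passed in MDA-MB-436 and was at an adjusted p of 0.0537 in MDA-MB-231 (edgeR).

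The other genes of the same families and pathways were taken from lists fixed by name. Their counts of DEGs stand against 5.90% and 10.5% of all genes for low serum and 7.69% and 12.5% for standard serum, and their counts by adjusted p alone against 38.9% and 52.0% and against 33.0% and 49.5%, each for MDA-MB-231 and then MDA-MB-436. Aldehyde dehydrogenases other than the members held 17 genes with a test in low serum and 16 in standard serum. In MDA-MB-436, 2 were higher and 1 lower in Wnt-positive cells among DEGs in low serum, and 1 higher and 1 lower in standard serum. In MDA-MB-231 the counts were 0 and 1 in low and 1 and 1 in standard serum. ALDH1L2, a mitochondrial enzyme of folate metabolism, rose from 16 and 15 to 519 and 499 counts in low serum (log2 fold change 5.06, adjusted p = 5.3e-25) and from 14 and 19 to 3234 and 2165 in standard serum (7.10, adjusted p = 4.21e-12, edgeR). Its cytosolic relative ALDH1L1 fell from 22 and 19 to 0 and 2 counts in low serum, at least 6.67-fold lower, and from 12 and 20 to 2 and 0 in standard serum, at least 6.11-fold lower. In MDA-MB-231 standard serum cells ALDH1L1 rose, from 235 and 189 to 749 and 765 counts (log2 fold change 1.75, adjusted p = 1.6e-08, edgeR), while its counts fell to 2 and 0 in MDA-MB-436.

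The retinoid list, which holds the binding proteins, receptors and degrading enzymes of the product of ALDH1A1 and ALDH1A3, had 17 genes with a test in each condition. RARB, the retinoic acid receptor beta, was a DEG in all 4 comparisons. Its counts went from 50 and 55 to 228 and 242 in MDA-MB-231 and from 101 and 111 to 318 and 267 in MDA-MB-436 in low serum, log2 fold changes of 2.23 (adjusted p = 1.08e-14) and 1.49 (adjusted p = 4.09e-12, edgeR). In standard serum the log2 fold changes were 1.86 and 1.01. CYP26B1, which degrades retinoic acid, was lower in Wnt-positive cells in all 4 comparisons, with log2 fold changes of −0.62, −1.19, −1.04 and −0.93 (MDA-MB-231 and MDA-MB-436 in low serum, then in standard serum; adjusted p at most 5.53e-08, edgeR). CRABP1, a cytosolic carrier of retinoic acid, rose in MDA-MB-436 from 1 and 0 counts to 34 and 34 in low serum, at least 11.5-fold. Over the whole list, the DEGs counted 3 higher and 1 lower in MDA-MB-231 and 4 higher and 1 lower in MDA-MB-436 in low serum, and 2 higher and 2 lower in MDA-MB-231 and 2 higher and 0 lower in MDA-MB-436 in standard serum. By adjusted p alone more genes were lower than higher in MDA-MB-231, with 4 higher and 8 lower in low serum, then 2 higher and 6 lower in standard serum. In MDA-MB-436 these counts were 8 higher and 2 lower in low serum, with 4 and 7 in standard serum. The list's median log2 fold change was −0.20 and −0.22 in MDA-MB-231 and 0.25 and −0.22 in MDA-MB-436, for low and then standard serum.

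Other surface markers of stem or mesenchymal cells moved in the direction of CD44 in MDA-MB-436 for some genes. NT5E (CD73), which makes adenosine at the cell surface, rose from 1902 and 1558 to 5807 and 5186 counts in low serum (log2 fold change 1.70, adjusted p = 1.7e-26, edgeR) and from 819 and 929 to 3873 and 3222 in standard serum (1.79, adjusted p = 3.94e-12, edgeR). ALCAM (CD166), an adhesion protein, rose with log2 fold changes of 1.01 and 1.34 (adjusted p = 1.01e-18 and 1.27e-10, edgeR). In MDA-MB-231 the log2 fold changes of both lay between −0.10 and 0.14. NES, the filament protein nestin, and ITGB3, an integrin subunit, fell in MDA-MB-231 in both conditions, with −1.16 and −1.28 for NES and −1.33 and −1.39 for ITGB3 (adjusted p at most 5.72e-06, edgeR), whereas NES rose in MDA-MB-436 in low serum from 20 and 22 to 68 and 48 counts (1.49, adjusted p = 4.33e-07, edgeR). LGR6, a receptor for R-spondins, rose in MDA-MB-231 in low serum from 13 and 9 to 165 and 145 counts (3.87, adjusted p = 2.68e-16, edgeR). In this list of 17 genes the DEGs counted 2 higher and 4 lower in MDA-MB-231 and 4 higher and 1 lower in MDA-MB-436 in low serum, and 1 and 5, and 3 and 2, among the 16 tested in standard serum. The list's median log2 fold change was −0.34 and −0.37 in MDA-MB-231 and 0.28 and −0.15 in MDA-MB-436, for low and then standard serum, against −0.01 to 0.01 over all genes.

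Of the partners and regulators of CD44, CD74, a chain that binds CD44 on the surface and otherwise accompanies MHC class II, rose in MDA-MB-436 with log2 fold changes of 1.33 (adjusted p = 3.78e-06) and 2.42 (adjusted p = 2.57e-06, edgeR). It stayed at most 56 counts in that line, against at least 14014 in every MDA-MB-231 library. ESRP1, the splicing factor that sets which CD44 isoform is made, went from 40 and 38 to 21 and 18 counts in MDA-MB-231 in standard serum (−1.08, adjusted p = 0.013, edgeR), a call lost with DESeq2 (adjusted p = 0.0891) and without the second 7TGP-NEG or 7TGP-POS replicate (0.0537 and 0.11). Isoforms were not resolved by these gene counts. Of the 13 genes of this list tested in low serum 0 were DEGs in MDA-MB-231 and 1 was higher in MDA-MB-436, and of the 12 tested in standard serum 1 was lower in MDA-MB-231 and 2 were higher in MDA-MB-436. By adjusted p alone 7 were higher and 4 lower in MDA-MB-231 in low serum, and 3 and 2 in MDA-MB-436.

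Among relatives of the SOX and KLF members, SOX5 rose in all 4 comparisons, with log2 fold changes of 1.48 and 1.18 in MDA-MB-231 and 1.84 and 2.86 in MDA-MB-436 (low, then standard serum) (adjusted p at most 0.00776, edgeR), although in MDA-MB-231 in standard serum the test was missed without the second 7TGP-NEG replicate (adjusted p = 0.0815) or the second 7TGP-POS replicate (adjusted p = 0.0709). SOX17, an endodermal and endothelial factor, was at 1 and 1 counts in MDA-MB-436 7TGP-NEG and 119 and 99 in 7TGP-POS cells in low serum, at least 36.8-fold higher, and at 0 and 0 against 93 and 103 in standard serum, at least 28.1-fold higher. SOX11, a factor of neural and basal-like tumours, fell there from 605 and 533 to 117 and 105 counts (log2 fold change −2.33, adjusted p = 1.91e-18, edgeR) in low serum and by 1.01 on the log2 scale in standard serum. KLF8 rose in MDA-MB-231 from 141 and 145 to 307 and 253 counts in low serum (1.03, adjusted p = 3.28e-08, edgeR) and from 37 and 39 to 223 and 292 in standard serum (2.66, adjusted p = 8.66e-09, edgeR). In MDA-MB-436 KLF8 had 11 counts or fewer per library, with 2 and 4 against 9 and 10 in low serum and 2 and 3 against 11 and 9 in standard serum. Its low serum call there was lost without the first 7TGP-NEG replicate (adjusted p = 0.215), without the second 7TGP-POS replicate (0.111), in the line's 4 libraries alone (0.0548) and on both TPM scales (0.526 and 0.12). Its standard serum call was lost with DESeq2 (0.0577), in the line's 4 libraries alone (0.051), with log2(TPM + 1) (0.323) and without any 1 of the 4 libraries (0.0523 to 0.104). KLF9 fell in MDA-MB-231 by 0.65 and 1.09 on the log2 scale, as KLF4 did, with log2 fold changes of 0.03 and 0.21 in MDA-MB-436 that did not pass the test. The 14 KLF relatives tested in low serum counted 2 higher and 7 lower in MDA-MB-231 and 4 higher and 3 lower in MDA-MB-436 by adjusted p alone, and the 15 in standard serum 3 and 9, and 6 and 1. The 14 SOX relatives counted 2 and 3, and 5 and 2, in low serum and 1 and 1, and 3 and 2, in standard serum.

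Polycomb components other than BMI1 changed by less than the DEG limit where they passed the test, with log2 fold changes from −0.76 (PCGF3 in MDA-MB-436 in standard serum) to 0.90 (CBX7 in MDA-MB-436 in low serum). Among the 18 tested, by adjusted p alone, 1 was higher and 8 lower in MDA-MB-231 and 5 higher and 6 lower in MDA-MB-436 in low serum, and 1 and 2, and 8 and 6, in standard serum. Of all genes 38.9%, 52.0%, 33.0% and 49.5% passed in these 4 comparisons. The list's median log2 fold changes, in that order, were −0.11, −0.07, −0.11 and 0.17. The pluripotency list, of which 7 genes had a test in low serum and 5 in standard serum, was mostly at few counts. TFAP2C, a factor of the germ line and of luminal breast cells, rose in MDA-MB-231 with log2 fold changes of 1.38 (adjusted p = 1.2e-21) and 2.18 (adjusted p = 1.6e-11, edgeR). In MDA-MB-436 TFAP2C rose by less than the DEG limit, by 0.93 (adjusted p = 1.14e-16) and 0.86 (adjusted p = 2.26e-07, edgeR). The list's DEGs counted 2 higher and 0 lower in MDA-MB-231 and 1 and 1 (SALL4 higher, ESRRB lower) in MDA-MB-436 in low serum. In standard serum the counts were 1 and 0, and 0 and 0. The ESRRB call in MDA-MB-231 in low serum rests on 0 and 0 against 3 and 3 counts and was lost with DESeq2 (adjusted p = 0.0525). In MDA-MB-436 in low serum ESRRB had 24 and 13 against 8 and 8 counts (adjusted p = 0.0463, edgeR). That call was lost with DESeq2 (adjusted p = 0.281), all biotypes (0.072) and the replicate block (0.0649). Without the first 7TGP-NEG replicate the log2 fold change there was −0.775.

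**Figure D4:**
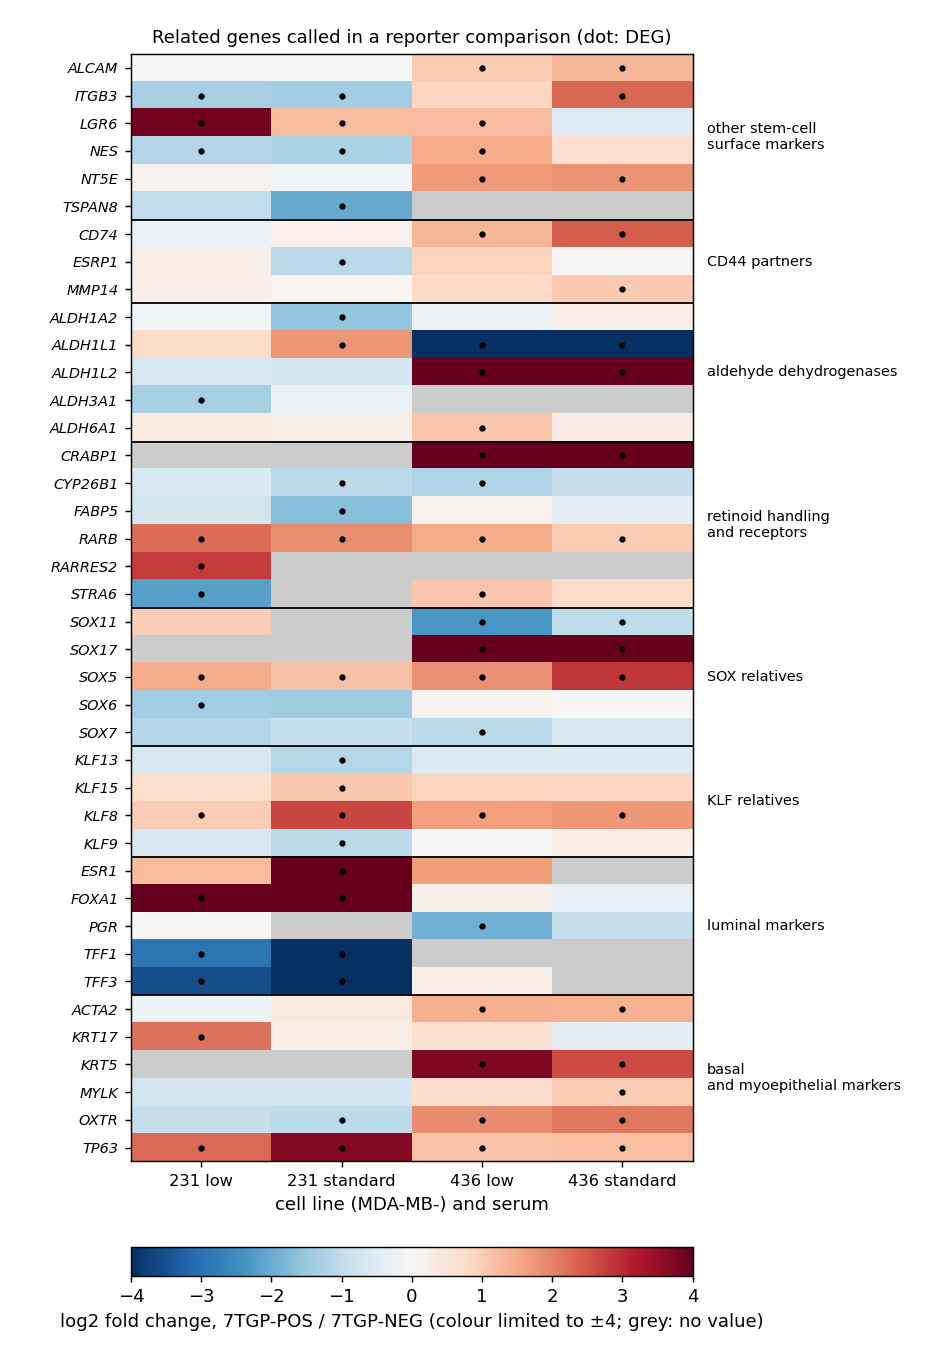
Log2 fold change of 7TGP-POS over 7TGP-NEG cells (red higher, blue lower, colour limited to 4 in either direction) for genes of 8 lists that were DEGs in at least 1 reporter comparison, at most 6 per list by adjusted p. Columns are the cell line and serum condition, black dots mark DEGs, and grey cells have no test or at most 3 counts in every library compared. RARB, SOX5, KLF8 and TP63 carry dots in all 4 columns, those of KLF8 in MDA-MB-436, of TP63 in MDA-MB-436 in standard serum and of SOX5 in MDA-MB-231 in standard serum being calls that were lost without single libraries, while ALDH1L2 and NT5E carry them in the MDA-MB-436 columns.

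Markers of luminal, basal and mesenchymal cells were also set beside the members, and their part in the changes above was not tested. Single markers changed in both directions within each list. In MDA-MB-231 the luminal pioneer transcription factor FOXA1 rose from 1 and 2 to 25 and 40 counts in low serum, at least 11.5-fold, while the secreted trefoil peptide TFF3 fell from 219 and 269 to 22 and 18 (−3.54, adjusted p = 2.28e-17, edgeR). Of the 8 luminal markers described, 1 was higher and 2 were lower among DEGs in MDA-MB-231 in low serum, and 2 were higher and 2 lower in standard serum. In MDA-MB-436 the counts were 0 higher and 1 lower (PGR, the progesterone receptor) in low serum. In standard serum they were 0 and 0 by edgeR, with 1 higher by adjusted p alone. The list's summed level in MDA-MB-231 was 117 to 120 CPM of protein-coding counts in 7TGP-NEG and 134 to 138 in 7TGP-POS libraries in low serum, with none of the 8 at 0, and 153 to 164 against 146 to 152 in standard serum, with ESR1 and PGR at 0 in 7TGP-NEG libraries. In MDA-MB-436 it was 170 to 177 against 143 to 150 in low serum and 147 to 149 against 161 to 166 in standard serum, with TFF1 at 0 in both conditions and TFF3 in standard serum. Most of this sum was XBP1, a factor of secretory cells, which went from 85.7 to 122 normalised CPM in MDA-MB-231 and from 162 to 128 in MDA-MB-436 in low serum (group means).

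Of the 13 mesenchymal genes, 4 were higher and 1 lower by adjusted p alone in MDA-MB-231 in low serum, with a median log2 fold change of 0.06. The lower gene was VIM (log2 fold change −1.05, adjusted p = 2.69e-20, edgeR), and the higher ones were SNAI2 (0.67), CDH11 (0.66), CDH2 (0.80) and ZEB2 (0.27). The list's summed level was 8640 to 8860 CPM of protein-coding counts in 7TGP-NEG and 6190 to 6320 in 7TGP-POS libraries. VIM was its largest part, with group means of 5510 and 2660 normalised CPM, before AXL (1590 and 1580) and FN1 (1370 and 1340). In standard serum 2 were higher and 3 lower in MDA-MB-231, VIM (−1.03, adjusted p = 1.17e-08) and the matrix protein FN1 (−2.14, adjusted p = 3.75e-11, edgeR) among the latter, and the sum was 8240 to 8800 against 4690 to 4860 CPM, with TWIST2 at 0 in both groups and TWIST1 in 7TGP-NEG libraries. In MDA-MB-436, where CD44 rose, 7 were higher and 3 lower in low serum, then 7 higher and 2 lower in standard serum. The sum there was 1400 to 1420 against 1900 to 1930 CPM in low serum and 1140 to 1210 against 1820 to 1870 in standard serum, with none of the 13 at 0. Of the 18 epithelial genes tested, 1 was higher and 2 lower among DEGs in MDA-MB-231 in low serum, and 1 and 1 in MDA-MB-436. In standard serum these counts were 0 and 1, and 0 and 4. Of all genes 5.90%, 10.5%, 7.69% and 12.5% were DEGs in these comparisons. The median log2 fold changes of the epithelial list, in that order, were −0.01, 0.16, −0.26 and −0.38.

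Of the 8 basal and myoepithelial markers, TP63, a factor of basal cells, was higher in Wnt-positive cells in all 4 comparisons (log2 fold changes 2.26 and 3.67 in MDA-MB-231 and 1.14 and 1.21 in MDA-MB-436, low before standard serum), although for MDA-MB-436 in standard serum, with 5 and 8 against 24 and 12 counts, the call was lost with DESeq2 (adjusted p = 0.0761) and without either 7TGP-NEG replicate or the first 7TGP-POS replicate (0.159, 0.0769 and 0.265). OXTR, the oxytocin receptor of myoepithelial cells, fell in MDA-MB-231 by 0.96 and 1.05 on the log2 scale and rose in MDA-MB-436 by 1.89 and 2.10 (adjusted p at most 1.03e-06, edgeR). MYLK, a myosin kinase, fell in MDA-MB-231 by 0.75 and 0.77 on the log2 scale (adjusted p at most 1.03e-05, edgeR). In MDA-MB-436 MYLK went from 6.01 to 9.87 and from 3.46 to 6.93 normalised CPM (group means, low before standard serum). ACTA2 went from 1.1 to 2.97 and from 1.54 to 4.05 in that line. The list's DEGs counted 2 higher and 0 lower in MDA-MB-231 and 4 and 1 in MDA-MB-436 in low serum. In standard serum they counted 1 and 1, and 5 and 0, with KRT5 in MDA-MB-436 lost by DESeq2 (adjusted p = 0.667). Of all genes 5.90%, 10.5%, 7.69% and 12.5% were DEGs in these comparisons. The list's median log2 fold changes, in that order, were 0.18, 0.93, 0.13 and 1.3. The list's summed level in MDA-MB-231 was 58.8 to 63.5 CPM in 7TGP-NEG and 58.8 to 61.9 in 7TGP-POS libraries in low serum and 49.7 to 54.2 against 41.9 to 43.1 in standard serum, with KRT5 at 0. In MDA-MB-436 it was 40.4 to 42.3 against 110 CPM in low serum and 22.5 to 25.0 against 61.2 to 67.8 in standard serum, with none at 0. OXTR alone went from 18.5 to 68.3 and from 9.49 to 40.7 normalised CPM there (group means), and carried most of the difference in the sum, whereas KRT14 went from 16 and 10 to 1 and 6 counts in low serum (−1.82, adjusted p = 0.0228, edgeR), a call lost with DESeq2 (0.082) and without the first 7TGP-NEG or the first 7TGP-POS replicate (0.139 and 0.253).

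As a check of the reporter state, 12 genes known as Wnt targets were listed by name. In MDA-MB-436 DKK1, a secreted inhibitor induced by Wnt signalling, rose with log2 fold changes of 2.11 (adjusted p = 7.9e-29) and 1.78 (adjusted p = 6.21e-12, edgeR), and in MDA-MB-231 it changed by 0.29 and −0.34. TNFRSF19 rose in every comparison, by 0.77 and 1.08 in MDA-MB-231 and 1.38 and 2.47 in MDA-MB-436 (low, then standard serum) (adjusted p at most 0.001, edgeR). LEF1 rose by 0.63 in MDA-MB-231 in low serum and by 0.5 and 0.9 in MDA-MB-436 (adjusted p at most 1.36e-05, edgeR). In MDA-MB-231 in standard serum LEF1 changed by 0.02. SP5 was lower in Wnt-positive cells in every comparison. Its log2 fold changes were −0.55 and −0.31 in MDA-MB-231 and −0.59 and −1.13 in MDA-MB-436 (low, then standard serum). SP5 missed the test only in MDA-MB-231 in standard serum (adjusted p = 0.326, edgeR). By adjusted p alone 6 of the 12 were higher and 1 lower in MDA-MB-231 and 4 and 2 in MDA-MB-436 in low serum. In standard serum these counts were 2 and 1, and 3 and 2. Of all genes 38.9%, 52.0%, 33.0% and 49.5% passed in these comparisons. The list's median log2 fold changes, in that order, were 0.33, 0.01, 0.01 and −0.10, against −0.01 to 0.01 over all genes. The DEGs of this list counted 1 higher and 0 lower in MDA-MB-231 and 2 higher and 1 lower in MDA-MB-436 in low serum (5.90% and 10.5% of all genes in either direction), and 2 and 0, and 2 and 2, in standard serum (7.69% and 12.5%). Those lower in Wnt-positive MDA-MB-436 cells were NKD1 in low serum (−1.21, adjusted p = 1e-05, edgeR) and SP5 and RNF43 in standard serum (−1.13, adjusted p = 0.000644, and −2.40, adjusted p = 0.00828, edgeR). The RNF43 call was lost without the first 7TGP-NEG or the first 7TGP-POS replicate (adjusted p = 0.153 and 0.106) and with log2(TPM + 1) (0.221). AXIN2, a feedback inhibitor of the pathway, passed the test in MDA-MB-231 in low serum (0.65, adjusted p = 8.29e-06, edgeR). It missed it in standard serum there (0.33, adjusted p = 0.21) and in MDA-MB-436 (0.36, adjusted p = 0.106, and −0.12, adjusted p = 0.684, edgeR). The Tcf/Lef letters CTTTGAT, searched on both strands, were not found in the promoters (250 bases before to 50 after the start) of the 8 members in the RefSeq table for GRCh38.p14, and 2.6% of all 35116 promoters of that length hold them.

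The genes whose group means ran most like those of a member were ranked by Pearson's r over the 8 group means of log2(TPM + 1), centred within each serum condition, among 11629 genes. Among them were CEP57, BABAM2 and RALGPS2 for CD44 (r from 0.967 to 0.993), EXD2, ARHGAP5 and REEP5 for SOX9 (0.993 to 0.997), ZNF451, C11orf80 and MEF2A for BMI1 (0.970 to 0.993), and RIN1 and CARNMT1 for KLF4 (0.995 and 0.991). For ALDH1A3 they were CYC1, NDUFS3 and TRIM16 (r = 0.999 each), for EPCAM MXRA7, HTR7 and PRNP (0.998 to 0.999), and for SOX2 C6orf58, SGK1 and CXADR (0.968 to 0.977). The 8 points share their libraries with the tests above and come from only 2 lines, and no test was made.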

How the data were processed

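The deposited counts are unnormalized whole numbers of read pairs on each gene. The authors aligned reads to hg19 with STAR (2.6.1a per the submitters' notes) and counted on Gencode v19; whether counting used strand is not given in the sources used here. The TPM values were also deposited by the authors, and how they were computed is not given in the sources used here. Of 57820 gene IDs, 55538 matched Gencode v44 lifted to GRCh37, which gave symbols and biotypes.

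For each serum condition, protein-coding genes reaching 10 counts over the 8 libraries together (16069 in low and 15414 in standard serum) were fitted with edgeR (TMM, robust quasi-likelihood, 4 groups), with Benjamini-Hochberg adjustment over all genes tested. The SE of a log2 fold change is its size over the root of the F statistic. Where all libraries of a group had 3 counts or fewer, a bound against 3 counts per library is given, which covers counting error only. The fit was tested on simulated data. Sequences are from GRCh37 (CD24P4) and RefSeq on GRCh38.p14 (promoters).

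All 10 members are named. Other genes were named as overlapping neighbours, as at most 6 DEGs per list by adjusted p, and as the 3 genes most like each member with a group mean of at least 5 TPM. Members and lists were chosen with earlier results of these data known. Alternatives were DESeq2, RLE factors, other filters and biotypes, prior count 2, limma-trend on log2(TPM + 1) and log2(TPM + 0.1), the replicate number as a block, the 4 libraries of a line alone, each library left out, and adjusted p alone. KLF14 and PCGF2 had no matched row. A luminal marker and a gene ranked as most like KLF4 are not reported here, and the marker was left out of its list's counts and sums. The software was edgeR 4.0.16, limma 3.58.1 and DESeq2 1.42.0 under R 4.3.3, with matplotlib 3.10.9, pandas 2.3.3 and numpy 2.4.6 under Python 3.11.15.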

Additional observations from a re-analysis of the deposited data

Results flagged for a closer look

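The reporter effect differed between the cell lines, by the interaction test of edgeR with an adjusted p under 0.05, for 5 members in each serum condition and for CD24P4 in standard serum. In low serum the log2 fold change in MDA-MB-231 minus that in MDA-MB-436 was −1.54 for SOX9, 1.58 for ALDH1A3, −0.63 for BMI1, −0.41 for CD44 and −0.27 for KLF4. In standard serum it was −1.92 for SOX9, −1.58 for BMI1, −1.40 for CD44, 1.27 for ALDH1A3, −0.70 for KLF4 and −1.25 for CD24P4. The low serum value of KLF4 lost its call with DESeq2 (adjusted p = 0.0584), with all biotypes (0.0587), on the TPM scale (0.373 and 0.340), and without MDA-MB-231 7TGP-NEG replicate 1 (0.0656) or MDA-MB-436 7TGP-POS replicate 2 (0.0542).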

How the results depend on the processing

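Over 90 member results (9 members in 10 comparisons), 1516 of 1566 alternative fits kept the direction and the side of the threshold or concerned a result that had not passed it, 26 lost a call, 20 gained one and 4 reversed. The 4 reversals came from TPM in low serum, where BMI1 in the MDA-MB-436 reporter comparison gave −0.00368 and −0.00382 and CD44 between 7TGP-NEG cells gave −0.171 and −0.173 with pseudocounts 1 and 0.1. On that scale the medians over all genes were −0.15 and −0.21 in the first comparison and −0.19 and −0.33 in the second. Counts of member DEGs moved by more than 1.5 times with log2(TPM + 1) in low serum (0 in MDA-MB-231 and 1 in MDA-MB-436) and with log2(TPM + 0.1) in MDA-MB-436 (2). With adjusted p alone they were 6 and 7 in the low serum reporter comparisons, 4 and 5 in those in standard serum, and 5 for the low serum interaction. Over all genes, log2(TPM + 1) gave 302 DEGs against 948 and 793 against 1694 in low serum, 522 against 1185 and 941 against 1932 in standard serum, and 1117 against 1884 for the low serum interaction, and all biotypes gave 10397 against 6732 and 9749 against 6245 between lines in low serum. With adjusted p alone the counts were 6250, 8348, 7345, 12730 and 12607 for low serum and 5084, 7631, 6355, 12140 and 12239 in standard serum. Leaving out each library gave member counts of 1 to 1 and 3 to 4 for low serum reporter comparisons and 0 to 0 and 2 to 3 for standard serum ones, 2 to 3 and 4 to 4 for interactions, 6 to 6 in both conditions between 7TGP-NEG cells, and 6 to 7 and 4 to 6 between 7TGP-POS cells. PROM1 between 7TGP-POS cells in low serum lost its call without MDA-MB-231 7TGP-POS replicate 1 or 2 or MDA-MB-436 7TGP-POS replicate 2 (adjusted p = 0.120, 0.0934 and 0.279) and with DESeq2 (0.128). The cause was not tested. Replicate numbers are shared by the groups but were not found to pair the samples (r of deviations −0.0970 to 0.0195 over the 6 pairs of groups in low serum, and −0.0238 to 0.148 in standard serum, where 4 of 6 were above 0.1). With the replicate block the member counts were 1, 4, 2, 6 and 7 (low serum) and 0, 2, 4, 6 and 5 (standard serum) (reporter effect in MDA-MB-231 and in MDA-MB-436, interaction, 7TGP-NEG and 7TGP-POS cells), and CD44 in MDA-MB-231 in standard serum passed (adjusted p = 0.0288, against 0.0537 without it). CD24P4 kept its side of the threshold in 107 of 120 fits. Of 2195 fits of list genes, 99 lost the call and none reversed. PROM1, ALDH1A1 in MDA-MB-231, and SOX2 in MDA-MB-231 in standard serum are limited by depth.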
